A study of Mus musculus with 12 samples.

Results

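The genes described are 10 members of the neuropilin, plexin, semaphorin and cortactin group: the co-receptors Nrp1 and Nrp2, the receptors Plxna1, Plxnb2, Plxnc1 and Plxnd1, the ligands Sema4a, Sema4d and Sema7a, and the actin regulator Cttn. They are 10 of 18193 genes that the arrays measured with at least 1 probe set (a set of probes for 1 transcript) assigned to that gene alone, and all 10 were among the 15420 genes tested. Together they have 30 such probe sets of 34945, of which 26 passed the filter on low values and 4 did not, 3 of Plxnc1 and 1 of Cttn. Members were taken by gene symbol, with no threshold, and the list was drawn up with results of these arrays in view. At least Nrp1 and Cttn were chosen by their difference between the leukaemia genotypes, so each member's value in that contrast is given as a description with no p, as are those of Nrp1 and Cttn between cell types. How many members passed in that contrast, in the main fit and in others, is stated with the figures for all genes. Nothing is read from these counts.

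Gene expression was measured on 12 mouse Affymetrix arrays, 3 in each of 4 groups. The wild-type leukaemia group held GFP+ bone marrow cells sorted from recipients of wild-type MBD2 cells with Notch1-driven T-cell acute lymphoblastic leukaemia (T-ALL). The knockout leukaemia group held the same kind of sorted cells with the Mbd2 gene, which encodes a protein that binds methylated CpG sites, deleted (MBD2-/-). The other two groups were double positive (DP, CD4+CD8+) thymocytes sorted from steady-state mice that were wild type or MBD2-/-. All leukaemia arrays thus share Notch1 as driver, transplantation, GFP and bone marrow, none of which the thymocytes have, so in a comparison of leukaemia with thymocytes these cannot be told apart. The labels give neither strain, age nor sex, nor whether the arrays of a group came from separate donors, so p-values measure the spread between these samples only.

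Semaphorins are secreted or membrane-bound proteins first known from axon guidance, and plexins are their main receptors. Plexins carry a GTPase-activating domain in the cytoplasm that acts on Ras-family proteins and, when a semaphorin binds, loosens integrin adhesion and rearranges actin. Neuropilins have only a short cytoplasmic tail and act as co-receptors, for class 3 semaphorins with A-type plexins and for VEGF with its receptors. In the thymus, Plxnd1 on double positive thymocytes is known for its part in the movement of maturing cells toward the medulla. Cortactin, the product of Cttn, binds the Arp2/3 complex and stabilises branched actin; most blood cells use its relative HS1, encoded by Hcls1.

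Because MBD2 binds DNA through methylated CpG dinucleotides, the promoters of Nrp1, Plxnd1, Plxnb2 and Sema4a are shown, the members in the RefSeq promoter table used here whose values differed most between the leukaemia genotypes. Every CG is in capitals. Methylation and MBD2 binding were not measured here. Each is 1 strand of 300 bases, 5′ to 3′ along the gene, from 250 before the transcription start to 50 after it, in RefSeq's mouse build GRCm38.p6, and 8 of the 10 members were matched. Where a gene has several starts, the most upstream is shown. The lines below give Nrp1 (chr8:128358823-128359122, plus strand), Plxnd1 (chr6:115994956-115995255, minus strand), Plxnb2 (chr15:89180739-89181038, minus strand) and Sema4a (chr3:88461133-88461432, minus strand).
Nrp1: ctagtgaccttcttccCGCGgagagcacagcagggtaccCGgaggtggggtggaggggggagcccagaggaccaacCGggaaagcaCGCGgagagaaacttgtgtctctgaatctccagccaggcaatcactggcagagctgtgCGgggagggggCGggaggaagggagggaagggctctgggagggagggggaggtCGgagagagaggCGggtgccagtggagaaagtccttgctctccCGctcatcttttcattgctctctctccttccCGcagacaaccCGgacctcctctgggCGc
Plxnd1: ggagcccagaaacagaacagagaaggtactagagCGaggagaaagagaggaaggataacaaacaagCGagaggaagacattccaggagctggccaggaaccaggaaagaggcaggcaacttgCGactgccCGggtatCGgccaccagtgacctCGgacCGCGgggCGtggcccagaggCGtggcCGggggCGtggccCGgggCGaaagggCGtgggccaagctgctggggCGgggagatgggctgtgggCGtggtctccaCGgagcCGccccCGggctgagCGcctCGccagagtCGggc
Plxnb2: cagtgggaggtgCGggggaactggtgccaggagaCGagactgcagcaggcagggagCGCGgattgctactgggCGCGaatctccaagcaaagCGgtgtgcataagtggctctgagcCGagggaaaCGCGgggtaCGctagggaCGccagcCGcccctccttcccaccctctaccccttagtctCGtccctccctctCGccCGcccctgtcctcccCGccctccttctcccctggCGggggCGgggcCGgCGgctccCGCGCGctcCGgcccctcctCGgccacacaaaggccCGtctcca
Sema4a: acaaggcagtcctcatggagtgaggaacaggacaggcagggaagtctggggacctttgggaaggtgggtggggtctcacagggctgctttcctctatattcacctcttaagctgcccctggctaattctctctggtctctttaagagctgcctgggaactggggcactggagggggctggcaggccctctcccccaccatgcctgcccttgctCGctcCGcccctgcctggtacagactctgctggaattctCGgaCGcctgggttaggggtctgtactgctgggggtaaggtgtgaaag

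The Nrp1 promoter held 14 CG dinucleotides, that of Plxnd1 23 and that of Plxnb2 27, against a median of 7 over the promoters of 27025 genes. Sema4a had 4 at the start shown, and between 4 and 14 over its 4 starts. The other members matched were Plxnc1 with 30, Nrp2 with 37, Sema7a with 23 and Sema4d with 2, and 26.8% of all promoters held 20 or more. The motif TGGGAA, the core read by RBPJ, the DNA-binding partner of Notch, was searched on both strands. It occurred 2 times in the Sema4a promoter, 1 time each in those of Plxnb2 and Plxnc1 and not in the other 5 windows, and 25.5% of all promoters hold it. A match is a run of letters and not a measured binding site.

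The Mbd2 transcript was checked first. Its intensity (probe set brightness on a linear scale) was 820 ± 119 (mean ± SD, n = 3) in wild-type and 54.4 ± 12.4 in knockout leukaemias (log2 difference −3.58, limma adjusted p = 3.16e-05). In thymocytes it was 1136 ± 206 and 72.1 ± 10.7 (log2 difference −3.70, limma adjusted p = 0.000718). The 12 arrays fall into a set of 5 with signal from the poly-A control transcripts and a set of 7 without it. The first set holds replicates 1 and 2 of both wild-type groups and replicate 1 of the knockout leukaemias. The ratio of the 3′ to the 5′ Gapdh control, a measure of RNA and cRNA length, ran from 0.964 to 1.14 in the first set and from 1.12 to 3.68 in the second.

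Cell type markers were read on the same arrays, where the brightest control without a target gave 35.3; lower intensities cannot be told from background. All 6 matched T lineage markers exceeded it on every array. Of these, Thy1 averaged 1186 in knockout and 6100 in wild-type leukaemias. Cd3g and Ptprc also had lower means in the knockout, and Cd3e, Cd3d and Cd5 higher ones. Of 8 matched markers of CD4+CD8+ cells, 8 exceeded background on every array in both thymocyte groups, 6 in wild-type and 5 in knockout leukaemias. Their summed intensity was lowest in knockout leukaemias (3785 to 5185). Most of that sum was Dntt, which averaged 4003 there and 1350 in wild-type leukaemias. Cd4, Cd8a, Cd8b1, Rag1, Ptcra and Ccr9 had lower means in knockout than in wild-type leukaemias. Rag2 lay below background in both. Mast cell markers summed to between 7694 and 9185 in knockout leukaemias and to at most 135 elsewhere, which came from Cpa3 and Kit, while the other 5 markers lay below background on every array. Endothelial cells also express Nrp1 and Plxnd1: Cdh5, Tek, Emcn and Vwf lay below background on every array, and the endothelial sum ran from 359 to 524 in wild-type and from 438 to 608 in knockout leukaemias, and from 292 to 453 and 272 to 339 in the thymocytes. Nrp1 also marks regulatory T cells, whose defining factor Foxp3 lay below background on every array. The sum of that list was 2249 to 3209 in knockout leukaemias and 1190 to 1609 in the other groups. Most of it was Ikzf2, averaging 2327 in knockout leukaemias, 1094 in wild-type leukaemias and 972 and 1024 in wild-type and knockout thymocytes. Ikzf4 also had its highest mean in knockout leukaemias, while Il2ra, Ctla4 and Tnfrsf18 had theirs in wild-type thymocytes. The B cell list summed to between 119 and 292 over all arrays, the erythroid list to between 111 and 362 and the dendritic cell list to between 435 and 1108. Monocyte and macrophage markers summed to between 271 and 886 and neutrophil markers to between 171 and 1996, the latter highest in wild-type leukaemias. The list of plasmacytoid dendritic cells, which shares Ccr9 with the thymocyte list, summed to 1021 to 2304 in knockout leukaemias, its lowest. Ccr9 set that order, averaging 114 in knockout leukaemias, 2066 in wild-type leukaemias and 8338 and 8106 in wild-type and knockout thymocytes. Of the list's other markers, Tcf4, Klk1 and Cox6a2 had their highest mean in knockout leukaemias and Bst2 in wild-type leukaemias. Tcf4 averaged 325 in knockout and 25.9 in wild-type leukaemias, and 317 and 316 in the thymocytes. Siglech exceeded 35.3 on 1 array only, at 36.4 in a knockout thymocyte sample. The part of other cells in the members' values was not tested beyond these sums. In sorted bulk samples, fewer cells of a type and less RNA per cell cannot be told apart.

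In knockout leukaemias the brightest probe sets of Cttn and Nrp1 gave no signal above background, although 2 of these 3 arrays exceeded it on a second Cttn probe set, and the arrays carried higher Sema4a, Plxnd1 and Plxnb2 and lower Plxna1. Between the thymocyte genotypes none of the 10 passed the test. In limma's fit over all genes the leukaemia genotypes differed at an adjusted p under 0.05 for 3 members that were higher and 3 that were lower, beside 16.2% of all genes tested (9.19% higher and 6.98% lower). The groups did not overlap for 8 members, beside 33.4% of genes. Nothing is read from these counts, since the contrast chose members. Over all genes 1417 were higher and 1076 lower, and the median log2 difference was −0.06 against −0.05 for the members. Samples of equal replicate number correlated in this pair of groups, although pairing and the poly-A sets cannot be told apart. With the replicate number as a block, 6 members passed and the count over all genes rose from 2493 to 3871. Without wild-type leukaemia 2 it was 1412, again with 6 members. On the arrays without poly-A signal alone, 1 wild-type and 2 knockout leukaemias, which leaves 1 residual degree of freedom, 0 genes passed in limma's fit, although 2028 genes had an unadjusted p under 0.05. The members kept their sign there, with log2 differences of −4.13 for Nrp1, −5.82 for Cttn and 3.24 for Sema4a.

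**Figure D1:**
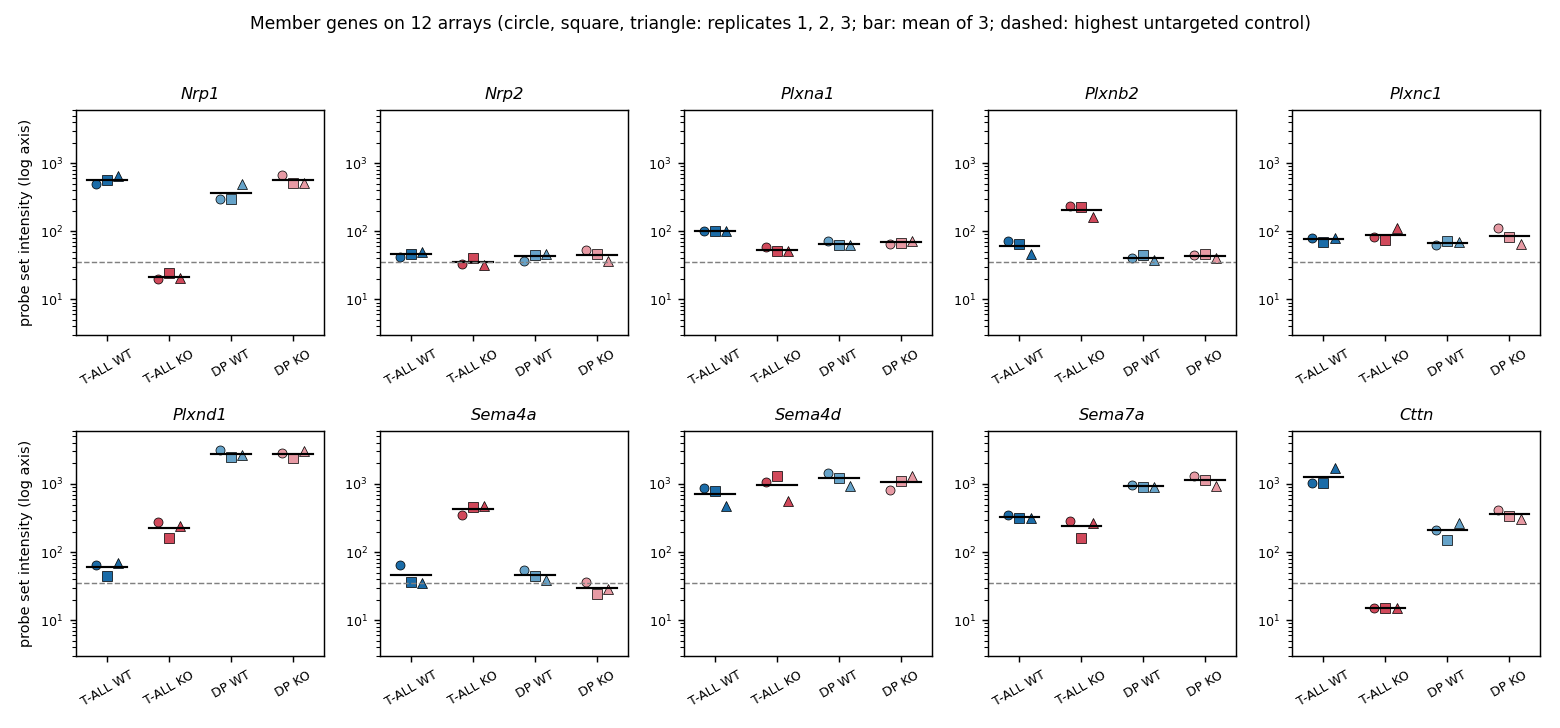
Intensity of the 10 member genes (log axis) on every array, by group; circles, squares and triangles are replicates 1, 2 and 3, the bar is the mean of 3 and the dashed line is the brightest untargeted control, 35.3. Nrp1 and Cttn lie under the dashed line in all 3 knockout leukaemias, and Plxnd1 lies between 2373 and 3176 in thymocytes against 44.1 to 274 in leukaemias.

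Nrp1 encodes neuropilin-1, the co-receptor for class 3 semaphorins and VEGF. In wild-type leukaemias 1, 2 and 3 its intensity was 489, 564 and 655. In the knockout leukaemias it was 19.8, 24.1 and 20.5, below background on all 3, so wild-type leukaemias were at least 16.02-fold higher (log2 difference −3.96, SE 0.13). The groups do not overlap, and the knockout values are alike on the 3 arrays. Wild-type thymocytes read 296, 295 and 500.3, and knockout thymocytes 681, 509.5 and 509.1. Knockout thymocytes were thus all higher than wild-type ones, by a log2 difference of 0.65 (SE 0.23) that did not pass limma's test (adjusted p = 0.982). The brightest wild-type thymocyte array is the only 1 of the 3 without poly-A signal, and all knockout thymocytes are without it; within that set the difference was 0.16. In order of mean, wild-type leukaemias (569) and knockout thymocytes (566) overlapped, wild-type thymocytes (364) overlapped the first but lay below the second, and knockout leukaemias stood apart at 21.5.

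All 4 Nrp1 probe sets were lower in every knockout leukaemia than in any wild-type one, by log2 differences from −1.62 to −3.96. The smallest of these was on a probe set that gave 134, 150.3 and 133 in wild-type and 23.1, 50.6 and 32.8 in knockout leukaemias, 1 of which exceeded background. In thymocytes 3 of the 4 were higher in the knockout without overlap (log2 0.34 to 0.65), and the other overlapped (0.29). Beside these, 12.9% of all probe sets tested differed between the leukaemia genotypes and 0.0106% between the thymocyte genotypes at an adjusted p under 0.05.

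Nrp2 encodes neuropilin-2, the related co-receptor for class 3 semaphorins and VEGF-C. Its brightest probe set stayed close to background in every group, at 41.9 to 49.9 in wild-type and 32.1 to 41.1 in knockout leukaemias, and at 37.0 to 46.9 in wild-type and 37.2 to 52.3 in knockout thymocytes. The leukaemia genotypes did not overlap but differed by only −0.27 (SE 0.11) on the log2 scale, and 2 of the knockout values were below background. Its other 3 probe sets were below background on all 12 arrays. No Nrp2 difference passed in the comparisons tested (limma adjusted p = 0.991 between thymocyte genotypes, 0.682 between wild-type cell types and 0.228 between knockout cell types).

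**Figure D2:**
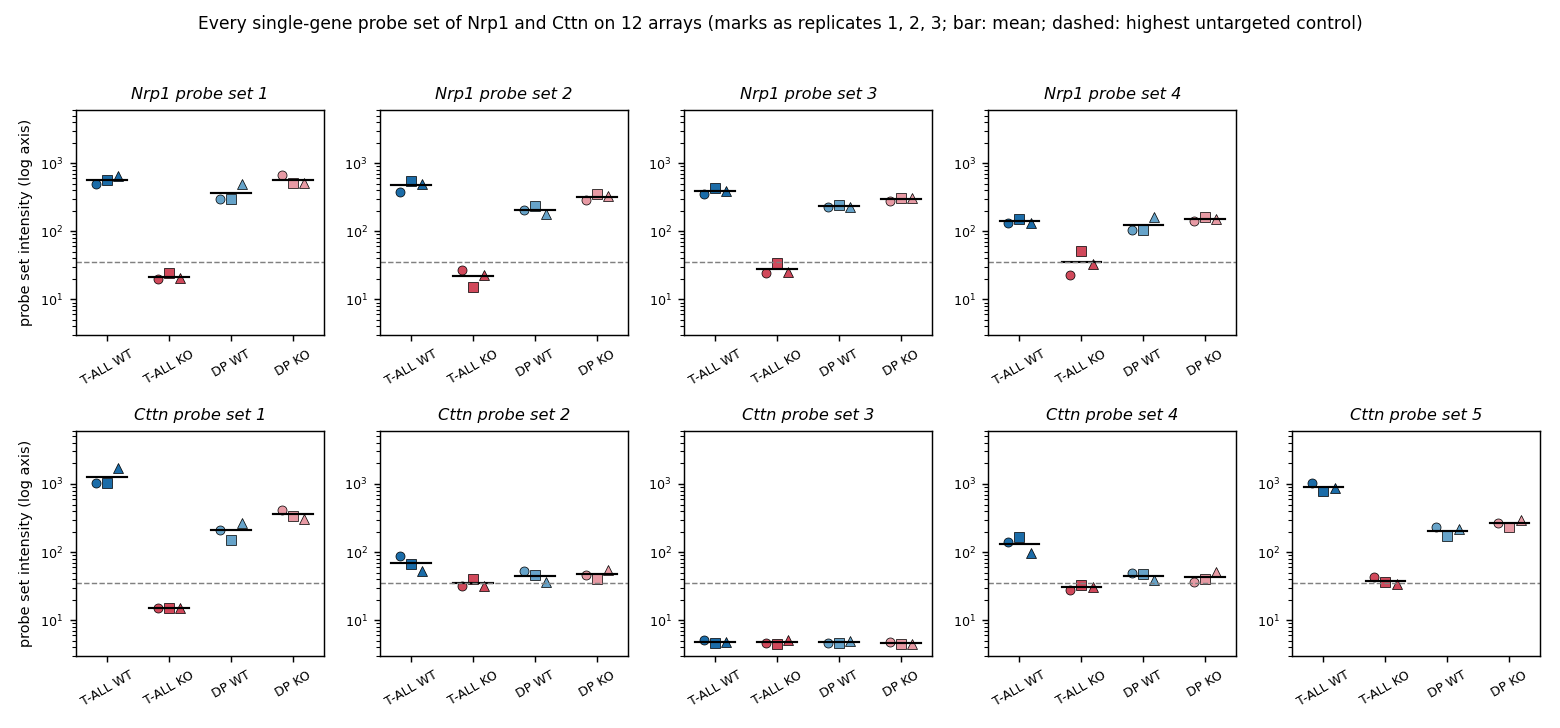
Intensity (log axis) of each single-gene probe set of Nrp1 (4) and Cttn (5) on every array, with marks, bars and dashed line as in the plot of the 10 members. Each probe set but the third of Cttn, which lies near 5 on all 12 arrays, is lower in every knockout leukaemia than in any wild-type leukaemia.

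Among the plexins, Plxnd1 is the receptor of Sema3e and also binds Sema4a. It was by far brighter in thymocytes than in leukaemia: wild-type thymocytes read 3176, 2531 and 2702, and wild-type leukaemias 65.8, 44.1 and 69.6. Between these groups the log2 difference was −5.23 (SE 0.17, limma adjusted p = 7.36e-06). Knockout thymocytes, at 2817, 2373 and 3043, overlapped the wild-type ones (log2 difference −0.03, SE 0.14, limma adjusted p = 0.992). Knockout leukaemias read 274, 162 and 244, all above the wild-type leukaemias (log2 difference 1.67, SE 0.22) and all far below any thymocyte array. Against knockout thymocytes the log2 difference was −3.53 (SE 0.20, limma adjusted p = 2.79e-05). The order was therefore both thymocyte groups, indistinct from each other, then knockout leukaemia, then wild-type leukaemia.

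Plxnb2, a receptor for class 4 semaphorins, was highest in knockout leukaemias. These read 232, 229.7 and 162, against 71.4, 64.4 and 46.6 in wild-type leukaemias (log2 difference 1.54, SE 0.18). Thymocytes were near background, between 38.1 and 44.6 in the wild type and between 40.3 and 46.5 in the knockout, with a log2 difference of 0.06 (SE 0.10, limma adjusted p = 0.987). Knockout leukaemias exceeded knockout thymocytes by 1.89 on the log2 scale (SE 0.15, limma adjusted p = 0.000137). The wild-type leukaemias were all brighter than wild-type thymocytes, a log2 difference of 0.41 that did not pass in the unblocked fit (limma adjusted p = 0.0646) and passed with the replicate block (adjusted p = 0.0204).

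Plxna1, the A-type plexin that pairs with neuropilin-1, was highest in wild-type leukaemias, at 102, 100.1 and 99.9. It read 58.1, 50.7 and 51.9 in knockout leukaemias (log2 difference −0.75, SE 0.09), with no overlap. Wild-type thymocytes gave 72.6, 62.1 and 62.8 and were lower than wild-type leukaemias, by a log2 difference of 0.51 (SE 0.10, limma adjusted p = 0.00592). Knockout thymocytes, from 65.7 to 72.9, overlapped the wild-type ones and lay above all 3 knockout leukaemias, where the log2 difference of −0.28 did not pass (limma adjusted p = 0.0744). It did pass with no filter on low values (limma adjusted p = 0.0413) and with all 12 arrays in the fit (0.0263). On its brightest probe set Plxna1 thus stood above its thymocyte level in wild-type leukaemias and below it in knockout leukaemias. The latter difference passed or missed the test with the fit. A second, dimmer Plxna1 probe set gave −0.30 between the leukaemia genotypes, without overlap. It was also higher in wild-type leukaemias than in wild-type thymocytes (log2 difference 0.38, limma adjusted p = 0.033 over probe sets). Between knockout leukaemias and knockout thymocytes it overlapped (log2 difference 0.05, limma adjusted p = 0.844 over probe sets). The level below thymocytes was thus seen on 1 probe set only.

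Plxnc1, the receptor of Sema7a, varied little by group. Its brightest probe set ranged from 69.2 to 80.4 in wild-type leukaemias, from 75.2 to 111 in knockout leukaemias, from 62.8 to 72.3 in wild-type thymocytes and from 65.1 to 111 in knockout thymocytes. Every pair of groups compared overlapped, and the log2 differences lay between 0.05 and 0.26. A second probe set did not overlap between the leukaemia genotypes, at 46.8 to 52.6 in the wild type and 68.9 to 82.3 in the knockout (log2 difference 0.50). The brightest probe set had the same sign there (log2 difference 0.17, SE 0.15), but with overlap. The other 4 Plxnc1 probe sets were below background on all 12 arrays.

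Sema4a, a membrane-bound class 4 semaphorin that costimulates T cells, was high in knockout leukaemias alone. It read 351, 464 and 474 there and 63.9, 36.9 and 35.3 in wild-type leukaemias, a log2 difference of 2.88 (SE 0.21) with no overlap. Thymocytes were close to background, at 53.9, 45.2 and 38.7 in the wild type and 36.3, 24.4 and 28.7 in the knockout, where 2 of 3 arrays lay below it. The measured knockout values were all under the wild-type ones, with a log2 difference of −0.44 (SE 0.14) that did not pass (limma adjusted p = 0.972). The second Sema4a probe set read 107, 149 and 216 in knockout leukaemias against 30.3 to 41.9 in wild-type ones, but between thymocyte genotypes it overlapped and went the other way (log2 difference 0.19). Knockout leukaemias exceeded knockout thymocytes, 2 of 3 of them below background, by 3.28 on the log2 scale (SE 0.16, limma adjusted p = 1.47e-05), while the wild-type cell types overlapped (log2 difference −0.04, SE 0.19, limma adjusted p = 0.919).

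Sema7a, a GPI-anchored semaphorin that binds Plxnc1 and beta1 integrins, was brighter in thymocytes than in leukaemia. Its brightest probe set was above background on all 12 arrays. Wild-type thymocytes read 957, 892 and 916, against 353, 319.8 and 316 in wild-type leukaemias (log2 difference −1.44, SE 0.10, limma adjusted p = 6.97e-05). Knockout thymocytes read 1311, 1131 and 946, against 288, 162 and 271 in knockout leukaemias (log2 difference −2.19, SE 0.23, limma adjusted p = 0.000432). Within the leukaemias the knockout values were all below the wild-type ones, by a log2 difference of −0.47 (SE 0.21). Within the thymocytes the genotypes overlapped (log2 difference 0.28, SE 0.13, limma adjusted p = 0.982). The other Sema7a probe set was below background on all 12 arrays.

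Sema4d, the CD100 ligand found on most T cells, gave signal in every group with wide spread inside each. Its intensities were 872, 793 and 479 in wild-type leukaemias, 1064, 1319.8 and 559.98 in knockout leukaemias, 1464, 1225 and 941 in wild-type thymocytes and 819, 1105 and 1304 in knockout thymocytes. In each group the dimmest array was the one with the highest Gapdh 3′ to 5′ ratio (2.48, 2.98, 3.68 and 3.33); the part of this in the values was not tested. The genotypes overlapped in both cell types, with log2 differences of 0.41 (SE 0.35) in leukaemia and −0.17 (SE 0.22, limma adjusted p = 0.987) in thymocytes. Wild-type leukaemias were all below wild-type thymocytes by a log2 difference of −0.77 (SE 0.26), which did not pass in the unblocked fit (limma adjusted p = 0.0565) and passed with the replicate block (adjusted p = 0.00105).

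Cttn encodes cortactin, the stabiliser of branched actin. Its brightest probe set read 1043, 1035 and 1735 in wild-type leukaemias and 15.3, 14.9 and 15.0 in knockout leukaemias, all 3 below background. Wild-type leukaemias were therefore at least 34.9-fold higher (log2 difference −5.33, SE 0.20). Wild-type thymocytes lay between, at 212, 152 and 265, and were below every wild-type leukaemia (log2 difference 2.50, SE 0.26). Knockout thymocytes read 420.4, 341 and 309.8, at least 10.0-fold above knockout leukaemias. They were also all above the wild-type thymocytes, where the log2 difference of 0.75 (SE 0.21) did not pass (limma adjusted p = 0.883); among arrays without poly-A signal it was 0.40. The 4 groups thus stood in the order wild-type leukaemia, knockout thymocytes, wild-type thymocytes, knockout leukaemia, with no overlap between neighbours.

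A second bright Cttn probe set gave the same leukaemia pattern, with 1031, 789 and 872 in the wild type and 42.7, 36.4 and 33.9 in the knockout (log2 difference −4.08). On this probe set 2 of the 3 knockout leukaemias exceeded background. In thymocytes it read 230.0, 173 and 216 in the wild type and 268, 237 and 293 in the knockout (log2 difference 0.35, no overlap). The 2 dimmer probe sets that passed the filter differed by −0.73 and −1.65 between the leukaemia genotypes, and overlapped between the thymocyte genotypes; on the dimmer of these, 1 knockout leukaemia exceeded background, at 40.6. The fifth was below background everywhere. Hcls1, the haematopoietic relative of Cttn, did not pass in any comparison. It averaged 508 ± 150 in wild-type and 658 ± 237 in knockout leukaemias, and 583 ± 251 and 393 ± 172 in the thymocytes (SD, n = 3 each; limma adjusted p = 0.585 between leukaemia genotypes and 0.982 between thymocyte genotypes). The Hcls1 log2 difference was 0.34 (SE 0.34) between leukaemia genotypes and −0.55 (SE 0.45) between thymocyte genotypes. Both had the sign opposite to that of Cttn. With SEs this wide, the fit cannot tell whether Hcls1 shifted.

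**Figure D3:**
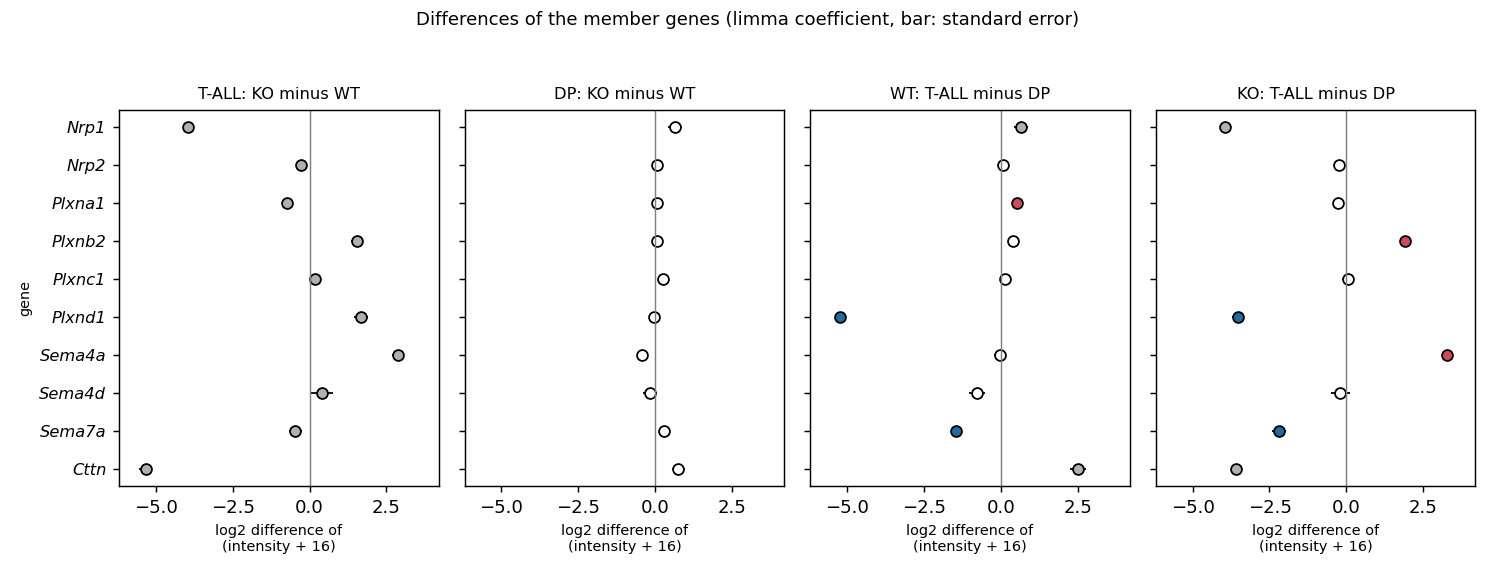
Log2 difference of (intensity + 16) for each member in 4 comparisons; points are limma coefficients, bars their SE, and red (higher) or blue (lower) points have an adjusted p under 0.05 in the fit over all genes. White points did not pass, and grey points are described with no test (all between leukaemia genotypes, and Nrp1 and Cttn between cell types). No point is red or blue between thymocyte genotypes, where the differences run from −0.44 to 0.75, against −5.33 to 2.88 between leukaemia genotypes.

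Between the thymocyte genotypes 0 of the 10 members passed in limma's fit, beside 0.0324% of all genes (5 of 15420). Unadjusted p was under 0.05 for 3 members, Nrp1 (0.0235), Sema4a (0.0173) and Cttn (0.00801), and for 722 of the 15420 genes tested. The same 3 members had thymocyte genotypes that did not overlap, beside 8.64% of all genes. Each of the 3 moved in the direction opposite to its leukaemia difference. Over all genes, 1.05% were lower in every knockout leukaemia and higher in every knockout thymocyte array, as Nrp1 and Cttn were, and 1.25% showed the reverse, as Sema4a did. The difference of the genotype differences, leukaemia minus thymocytes, was −6.08 (SE 0.31) for Cttn, −4.60 (SE 0.28) for Nrp1, −0.80 (SE 0.12) for Plxna1, 1.48 (SE 0.21) for Plxnb2, 1.70 (SE 0.28) for Plxnd1 and 3.31 (SE 0.26) for Sema4a on the log2 scale. No p is given for these values. In limma's fit of 12 arrays 6 members passed, beside 12.6% of all genes. Nothing is read from that count, since the fit holds the contrast that chose members.

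Between cell types the test was read for the 8 members other than Nrp1 and Cttn. Wild-type leukaemia and wild-type thymocytes differed in 3 of them, Plxna1 higher in leukaemia and Plxnd1 and Sema7a lower, beside 33.9% of all genes (19.7% higher and 14.2% lower). The groups did not overlap for 5 of the 8, beside 45.7% of genes. With the replicate block 5 passed, Plxnb2 and Sema4d being added, beside 6980 of 15420 genes in place of 5228. Knockout leukaemia and knockout thymocytes differed in 4 of the 8, Plxnb2 and Sema4a higher and Plxnd1 and Sema7a lower, beside 29.4% of all genes (18.5% higher and 11% lower), and 5 did not overlap, beside 42.1%. Both comparisons share arrays with the genotype contrasts, so their values are given side by side and are not independent of them. Plxnd1 and Sema7a were lower in leukaemia in both genotypes. For Nrp1, wild-type leukaemias and thymocytes overlapped on the brightest probe set (log2 difference 0.66, SE 0.22) and on the dimmest (0.18). On the other 2 Nrp1 probe sets every wild-type leukaemia was above every wild-type thymocyte array, by 1.13 and 0.71. Knockout leukaemias were at least 15.9-fold below knockout thymocytes on the brightest Nrp1 probe set. Cttn was above its thymocyte level in wild-type leukaemias (log2 difference 2.50) and below it in knockout leukaemias.

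The rest of the receptor and ligand families was read from lists of all other semaphorins and plexins. Of 15 other semaphorins tested (17 listed, Sema3c and Sema3d not passing the filter), 2 rose in knockout leukaemia and 0 fell, beside 9.19% and 6.98% of all genes, with a list median log2 difference of −0.07 against −0.06 for all genes. The same shares and median apply to the lists that follow. Sema4g, a class 4 transmembrane semaphorin, rose from 67.8 ± 13.6 to 154 ± 13.5 (log2 1.03, SE 0.14, limma adjusted p = 0.00349). Sema4c, a class 4 ligand of Plxnb2, rose from 176 ± 21.1 to 348 ± 65.3 (log2 0.92, SE 0.16, limma adjusted p = 0.00931). Sema4c was also higher in leukaemia than in thymocytes in both genotypes, at 43.6 ± 11.2 in wild-type and 56.3 ± 7.35 in knockout thymocytes (log2 1.70, adjusted p = 0.000303, and 2.32, adjusted p = 5.9e-05, in limma's fits). With the replicate block, 4 other semaphorins in place of 1 differed between wild-type leukaemia and thymocytes, beside 6980 genes in place of 5228.

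Of the 5 other plexins, 0 passed between the leukaemia genotypes in the unblocked limma fit. With the replicate block 1 did, beside 3871 of 15420 genes. Plxna3 and Plxnb3 had an unadjusted p under 0.05, as did 4466 of the 15420 genes in the unblocked fit. Plxna3, an A-type plexin, averaged 145 ± 16.7 in wild-type and 102 ± 15.6 in knockout leukaemias (log2 −0.45, limma adjusted p = 0.0744). It exceeded its thymocyte level in both genotypes (log2 0.98, adjusted p = 0.00131, and 0.68, adjusted p = 0.0114, in limma's fits). Plxnb3 averaged 41.7 ± 11.3 and 63.0 ± 12 in the leukaemias (log2 0.46, limma adjusted p = 0.151). Between the thymocyte genotypes 0 of the 20 other semaphorins and plexins tested passed in limma's fit. An unadjusted p under 0.05 was found for 0 of them, beside 722 of 15420 genes.

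**Figure D4:**
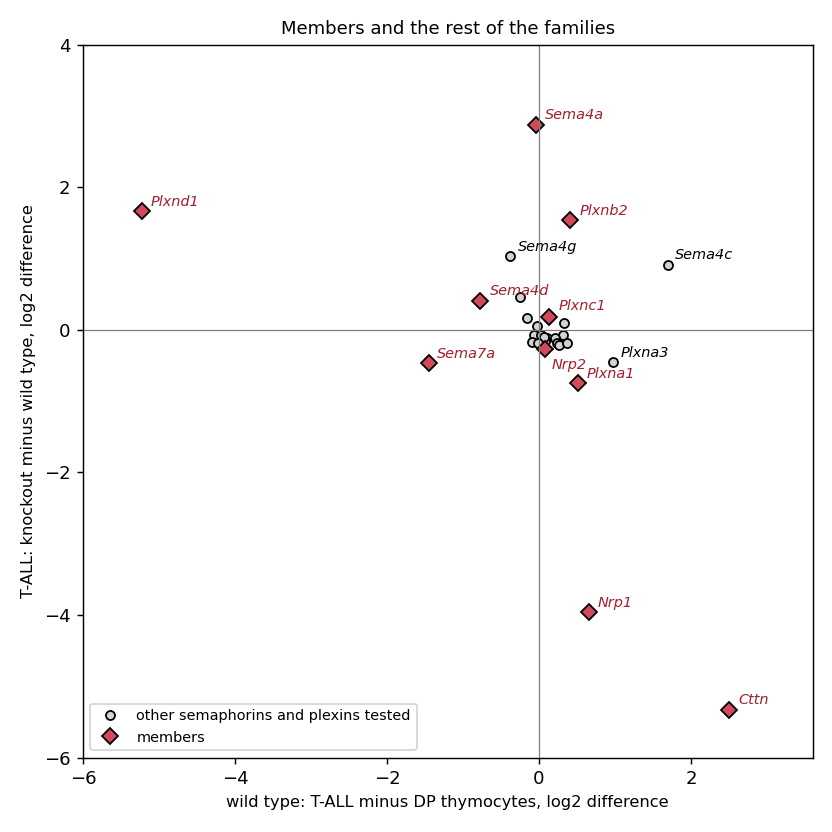
Log2 difference between leukaemia genotypes (vertical) against that between wild-type leukaemia and wild-type thymocytes (horizontal), for the 10 members (diamonds) and the 20 other semaphorins and plexins tested (circles). Both axes use the wild-type leukaemia arrays, so the slope across points has no meaning; among the circles Sema4c (1.70, 0.92), Sema4g and Plxna3 stand farthest from 0.

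Partner receptors and neuropilin ligands were a list of 21 genes, 17 of them tested; 3 were higher and 2 lower in knockout leukaemia by limma's fit, with a median of −0.08. Flt1, the VEGF receptor 1 that binds VEGF-A, VEGF-B and placental growth factor, rose from 39.5 ± 7.69 to 307 ± 65.7 (log2 2.53, SE 0.18, limma adjusted p = 0.000178). Mst1r, the RON receptor tyrosine kinase reported to couple to B-type plexins, rose from 22.2 ± 1.59, below background on all 3 arrays, to 143 ± 19.7, at least 4.02-fold (log2 2.05, SE 0.12, limma adjusted p = 8.39e-05). Tgfb1, a ligand that neuropilin-1 can bind, rose from 157 ± 38.0 to 281 ± 28.1 (log2 0.80, limma adjusted p = 0.0249). The 2 lower ones are ligands of Flt1 and neuropilin-1. Vegfb fell from 258 ± 8.70 to 121 ± 54.4 (log2 −1.07, SE 0.27, limma adjusted p = 0.0378). Pgf passed the fit (log2 −0.36, limma adjusted p = 0.0351), but both group means lay below background, so no change is read for it. Flt1 and Mst1r stayed at 18.5 to 38.2 in thymocytes of either genotype, and their leukaemia and thymocyte genotype differences were unequal (difference 2.41, adjusted p = 4.11e-05, and 2.07, adjusted p = 5.23e-06, in limma's fit of 12 arrays).

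Plexin effectors in the cytoplasm were 32 genes, 31 tested. In knockout leukaemia 3 rose and 2 fell, with a median of 0.00. With the replicate block 8 passed, beside 3871 of 15420 genes. Farp1, an exchange factor for Rac that A-type plexins bind, rose from 20.1 ± 3.25, below background on all 3 arrays, to 173 ± 29.2, at least 4.85-fold (log2 2.38, SE 0.14, limma adjusted p = 9.64e-05). Fyn, the kinase recruited by A-type plexins, rose from 249.5 ± 25.1 to 722 ± 242 (log2 1.43, SE 0.22, limma adjusted p = 0.00589), close to its thymocyte levels of 728 ± 48.9 and 712 ± 52.2. Ranbp9, a scaffold that binds A-type plexins, rose from 654 ± 46.0 to 1364 ± 467 (log2 0.99, limma adjusted p = 0.0255). Of those that fell, Mical3, a flavoprotein oxidase of the family that acts on actin, went from 389.8 ± 111 to 187 ± 27.1 (log2 −0.97, limma adjusted p = 0.0288). Arhgef11, the PDZ-RhoGEF that B-type plexins bind, went from 77.1 ± 7.21 to 40.5 ± 5.28 (log2 −0.72, limma adjusted p = 0.00656). Between wild-type leukaemia and wild-type thymocytes 1 effector was higher and 7 lower, beside 19.7% and 14.2% of all genes. With the replicate block 14 passed in all, beside 6980 of 15420 genes.

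Cortactin partners and branched-actin genes were 48, with 44 tested. In knockout leukaemia 5 of these rose and 0 fell, with a median of 0.07. Wipf1, the partner of the Wiskott-Aldrich protein, rose from 562 ± 85.9 to 1270.0 ± 376 (log2 1.12, limma adjusted p = 0.0227). Ssh1, a cofilin phosphatase, rose from 226 ± 59.1 to 491 ± 95.8 (log2 1.08, limma adjusted p = 0.0159), and Abi2, a subunit of the WAVE complex, from 403 ± 79.1 to 675 ± 82.6 (log2 0.73, limma adjusted p = 0.0272). Sh3pxd2a, the podosome scaffold TKS5, rose from 178 ± 12.3 to 282.5 ± 27.8 (log2 0.62, limma adjusted p = 0.0108). The fifth was Abl1, a kinase that phosphorylates cortactin, from 489.7 ± 41.8 to 682 ± 66.8 (log2 0.46, limma adjusted p = 0.0389). No tested subunit of the Arp2/3 complex passed between the leukaemia genotypes, and Actr2, Arpc1b, Arpc3 and, from the WAVE complex, Cyfip1 had no single-gene probe set under these symbols. Between wild-type leukaemia and wild-type thymocytes 6 were higher and 14 lower, beside 19.7% and 14.2% of all genes. The list median was −0.16 against 0.06 for all genes. Nckap1, a subunit of the WAVE complex, was higher (639 ± 63.1 against 222 ± 30.7, log2 1.47, limma adjusted p = 0.000242) and Dnm2, the dynamin that binds cortactin, was lower (249 ± 18.6 against 772.5 ± 72.8, log2 −1.57, limma adjusted p = 9e-05). Between the thymocyte genotypes 0 of the 44 passed in limma's fit, with Dbnl and Nckap1l at an unadjusted p under 0.05. In the partner receptor and effector lists 0 genes passed there as well, and Rnd2 and Crmp1 alone had an unadjusted p under 0.05. Over all genes, 722 of 15420 had an unadjusted p under 0.05 between the thymocyte genotypes.

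The genes whose pattern was most like each member were found by Pearson correlation of log2 values over the 12 arrays, which share 4 groups, and are a description only. Cttn lay closest to Ptcra, the pre-T-cell-receptor alpha chain (r = 0.982), which averaged 1583 ± 183 in wild-type and 31.6 ± 7.99 in knockout leukaemias and 381 ± 44.8 and 464.5 ± 48.0 in the thymocytes. Nrp1 lay closest to Acan, the cartilage proteoglycan aggrecan (r = 0.989), and Tcra (r = 0.983), whose means lay below background in knockout leukaemia and above it in the other 3 groups. Plxnb2 lay closest to Itga2b, the platelet integrin chain CD41 (r = 0.992), and Sema4a to St6gal1, a sialyltransferase (r = 0.986), Il18r1 and Lyl1. Plxnd1 was closest to Ppp2r5c, a regulatory subunit of phosphatase 2A (r = 0.994), and Sema7a to Ccdc153 (r = 0.984). Plxna1 was closest to Lgalsl (r = 0.978) and Sema4d to Pex5 (r = 0.963). The lowest best matches were those of Plxnc1, with 4933435C09Rik (r = 0.930), and Nrp2, with Saxo2 (r = 0.926), members whose values varied little between groups.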

How the data were processed

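The authors deposited probe set intensities on a linear scale (3.07 to 21620), and summarized per probe set; the sources used here do not give how they were summarized, background-corrected and normalized. The log2(intensity + 16) medians of the arrays lay between 5.71 and 5.79, so nothing was normalized again. Depth has no counterpart here, and 3 arrays per group limit the precision. Of 45101 probe sets, 34945 had 1 gene in the array annotation, 932 several, 9160 none and 64 were controls. A gene is represented by the brightest, on average, of its single-gene probe sets and was tested if above its array's 25th percentile on at least 3 arrays. Background is the brightest untargeted control, and "at least" folds are the bright group's geometric mean over it.

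Comparisons used limma 3.58.1 in R 4.3.3 (lmFit, eBayes), each pair of groups in its own fit and the difference of differences over 12 arrays, with Benjamini-Hochberg adjustment over all genes tested; the code was tested on simulated data. Fold changes are on the log2(value + 16) scale, which understates those of dim genes. With 3 against 3 a rank test cannot give an exact p under 0.1. Figures were drawn with matplotlib 3.10.9 in Python 3.11.15.

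The members, the lists and their tests were chosen with earlier results of these data known. Named besides the members are Mbd2, Hcls1, up to 4 passing genes per list, comparison and direction with the largest differences (otherwise the 2 with the smallest p), and the nearest genes by correlation; Abl1 was named after its values were seen. Nrp1 and Cttn get no p in any contrast with leukaemia arrays. Replicate numbers come from the labels, which do not say what they mark. For equal numbers, deviations from group means correlated at 0.40, 0.24 and 0.55 between leukaemia genotypes. Between wild-type cell types they correlated at 0.45, 0.44 and 0.58. The replicate block is given there beside the unblocked fit, which gave the p-values unless a block is named. In both wild-type groups replicates 1 and 2 carry poly-A signal and replicate 3 does not. The leukaemia genotypes match in poly-A set for replicates 1 and 3. Pairing and the poly-A sets therefore cannot be told apart. Between thymocyte genotypes (−0.52, 0.14 and −0.49) and knockout cell types (−0.39, 0.09 and −0.43) equal numbers did not correlate positively throughout. The alternatives tried were centring on the 75th percentile, quantile normalization, other filters, constants of 1 and 64, the mean of a gene's probe sets, trend and robust eBayes, all 12 arrays in a fit, the replicate and poly-A sets as blocks, either poly-A set alone, and leaving out each array.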

Additional observations from a re-analysis of the deposited data

Results flagged for a closer look

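For 3 members every measured knockout thymocyte value lay on one side of the wild-type thymocytes and every knockout leukaemia on the other side of the wild-type leukaemias. The knockout minus wild-type log2 difference of Nrp1 was 0.65 in thymocytes and −3.96 in leukaemia, that of Cttn 0.75 and −5.33, and that of Sema4a −0.44 and 2.88. The difference between cell types is given without a p, because the leukaemia contrast chose members. Among arrays without poly-A signal, which leave 1 wild-type thymocyte array, the thymocyte differences were 0.16 for Nrp1, 0.40 for Cttn and −0.26 for Sema4a. The Sema4a thymocyte values are close to background (35.3), and 2 of the 3 knockout values, 24.4 and 28.7, lie below it, so their order there is not established. The second Sema4a probe set went the other way in thymocytes (0.19, with overlap).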

How the results depend on the processing

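Of 476 tested values of the members' log2 differences under the alternatives run, 18 gained a call, 0 lost one and 0 reversed; 2 from single arrays moved by more than the replicate spread. Of 494 values described without a test, 47 moved by more than that spread and 0 changed the sign of a difference that passed. On those arrays the members passing between leukaemia genotypes went from 6 to 0 and the genes from 2493 to 0, with 1 wild-type array and 1 residual degree of freedom left, and the genes passing in the difference of differences from 1943 to 612. In limma's fit with the replicate block, 3871 genes passed between leukaemia genotypes and 0 between thymocyte genotypes, where equal numbers did not correlate throughout. For the thymocyte genotypes, 419 genes had an unadjusted p under 0.05, against 722 without the block. Apart from Plxnb2 and Sema4d between wild-type cell types the block changed no call of a tested member. Between wild-type cell types 3 of 8 members passed, and 5 with 75th-percentile centring, a constant of 1, only the arrays with poly-A signal, the poly-A or replicate block, or trend and robust eBayes. In those fits 5363 to 6980 genes passed, against 5228. The 5 genes passing between thymocyte genotypes became 13 with all 12 arrays, 11 with centring or with trend and robust, 8 with a constant of 1, and 1 without the poly-A arrays or with that set as a block. Leaving out single arrays gave 1412 to 2429 genes between leukaemia genotypes, 1 to 4 between thymocyte genotypes, 3901 to 5216 and 3290 to 4483 between wild-type and knockout cell types, and 1515 to 2103 in the difference of differences; the members passing stayed at 6, 0, 3 to 4, 4 and 6. The cause of these changes was not tested. Centring moved the median of all genes from −0.06 to −0.13 between leukaemia genotypes, from 0.06 to 0.14 between wild-type cell types and from −0.05 to −0.18 in the difference of differences. Fits on arrays with poly-A signal were not run for thymocyte genotypes, knockout cell types or the difference of differences, where a group has none. Values under 35.3 set the limit for Nrp1, Cttn, Nrp2 and Sema4a.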
